A study of Mus musculus with 14 samples.

Results

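The endothelial genes described here were 10 genes that mark the cells lining blood vessels: Flt1, Kdr, Tek, Tie1, Cdh5, Cldn5, Esam, Pecam1, Vwf and Egfl7. They were chosen by name, and a probe counted for a gene when the annotation of the array gave it that symbol. Of the 10 genes, 9 had a probe (13 probes in all), among 16593 genes on the array. Cldn5 had none and is only named. A gene entered the tests of a tissue when a probe was above background (detection p under 0.05) on at least 2 of its arrays, which left 8 of the endothelial genes among 8898 genes in muscle and 7 among 9956 in brain. The RNA came from male C57BL/6 mice that were 13 months old when the diets began. Muscle was measured on 2 arrays of the control diet, 3 of calorie restriction (CR, 70% of the food of the controls) and 3 of β-lapachone (βL, 0.066% of the diet), and brain on 2 arrays of each diet. βL is a quinone that serves as a substrate of the enzyme NQO1. The design text of the series calls the brain tissue cortex, and the sources used here do not name the muscle. Whether replicates were different mice is not stated, so a p-value here speaks only of the spread among these arrays, some of which may be technical.

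Endothelial cells line every blood vessel and form its barrier. They sense vascular endothelial growth factor (VEGF) through the receptors encoded by Kdr and Flt1, and angiopoietins through the receptor encoded by Tek, with Tie1 as its partner. They hold together through adhesion proteins such as VE-cadherin (Cdh5), Esam and Pecam1, and through the tight junction protein Cldn5. They store the clotting protein von Willebrand factor (Vwf) and secrete Egfl7, a protein of the vessel wall. Brain capillaries are sealed and rich in transporters, which makes the blood-brain barrier. Muscle capillaries lack this seal and take up fatty acids from the blood. The RNA was taken from whole tissue, in which fewer endothelial cells and less RNA per endothelial cell cannot be told apart.

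Promoter sequences are shown for 3 of the receptors because the ETS transcription factors, which bind a core of GGAA, are known regulators of endothelial genes. RefSeq (GRCm38.p6) held 8 promoter windows for 6 of the 10 genes, each with 250 bases before and 50 after a start. The letters GGAA were counted on both strands (as GGAA or TTCC) and are in capitals. Tie1, Tek and Flt1 are given 5′ to 3′ on their own strands, Tie1 at chr4:118489800-118490099 (minus strand), Tek at chr4:94739039-94739338 (plus strand) and Flt1 at chr5:147725962-147726261 (minus strand).
Tie1: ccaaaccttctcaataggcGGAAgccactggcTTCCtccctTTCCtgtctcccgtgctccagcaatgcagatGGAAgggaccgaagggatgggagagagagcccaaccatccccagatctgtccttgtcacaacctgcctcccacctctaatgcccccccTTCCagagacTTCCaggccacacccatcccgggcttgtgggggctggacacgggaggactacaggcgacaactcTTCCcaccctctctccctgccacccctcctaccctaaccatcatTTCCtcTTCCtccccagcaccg
Tek: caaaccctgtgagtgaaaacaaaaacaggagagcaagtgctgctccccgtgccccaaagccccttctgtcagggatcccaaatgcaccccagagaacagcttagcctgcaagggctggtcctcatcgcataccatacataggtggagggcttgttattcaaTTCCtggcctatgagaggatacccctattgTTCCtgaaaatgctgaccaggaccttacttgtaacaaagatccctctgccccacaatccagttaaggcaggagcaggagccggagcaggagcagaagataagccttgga
Flt1: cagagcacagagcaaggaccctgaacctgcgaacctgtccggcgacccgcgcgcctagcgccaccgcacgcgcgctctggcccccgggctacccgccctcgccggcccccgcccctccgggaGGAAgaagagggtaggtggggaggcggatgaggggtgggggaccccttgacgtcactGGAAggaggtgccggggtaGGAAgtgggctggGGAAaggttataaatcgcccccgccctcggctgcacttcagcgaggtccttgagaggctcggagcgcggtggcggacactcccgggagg
The Tie1 window held 9 cores, a number reached by 1.59% of the 32851 promoter windows of the table. Flt1 held 4, a number reached by 46.3% of all windows, and Tek 2, reached by 84.6%. Kdr held 5 (28.6%), the 3 windows of Egfl7 5, 4 and 1, and Cldn5 0. Over all windows the median was 3 and 96% held at least 1. The letters TATAAA (either strand) were present in 1 of the 8 windows, that of Flt1, and in 13.6% of all. These counts describe letters, and no binding was measured.

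The tissue labels held for the genes that define them. All 7 tested skeletal muscle genes were lower in brain, among them Ckm, which was above background on all 8 muscle arrays and on 0 of 6 brain arrays, and all 5 tested brain cell genes were higher. Before normalization the arrays had median intensities of 150 to 165 in muscle and 79.9 to 127 in brain. In muscle, control replicate 1 was unlike the others. Its correlation with them across genes averaged 0.971, where theirs averaged 0.977 to 0.984, and 8 of 10 genes of the liver were above background on it against 0 on every other muscle array. Results against the muscle controls are therefore also given without it.

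The endothelial genes were lower in brain than in muscle on every diet (for single diets, 37.2% of all genes were called lower on control, 38.4% on CR and 38.7% on βL). All 8 that could be tested passed (limma over 10827 genes, 14 arrays normalized together), with a median log2 difference of -2.13, brain minus muscle, and in each of the 8 every brain array lay below every muscle array. The background was wide: 82.8% of all genes were called, 44.6% lower in brain and 38.2% higher, the median over all genes was -0.10, and every brain array lay below every muscle array for 35.3% of genes. The count of 8 of 8 is to be read against those shares. It includes Cdh5, which entered this fit through muscle and was above background on 1 of 6 brain arrays. By the brightest probe of each gene, the order of the differences ran from Cdh5 through Pecam1, Tek, Esam, Tie1, Vwf and Egfl7 to Flt1. The levels that follow are on the log2 scale of the 14 arrays.

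**Figure D1:**
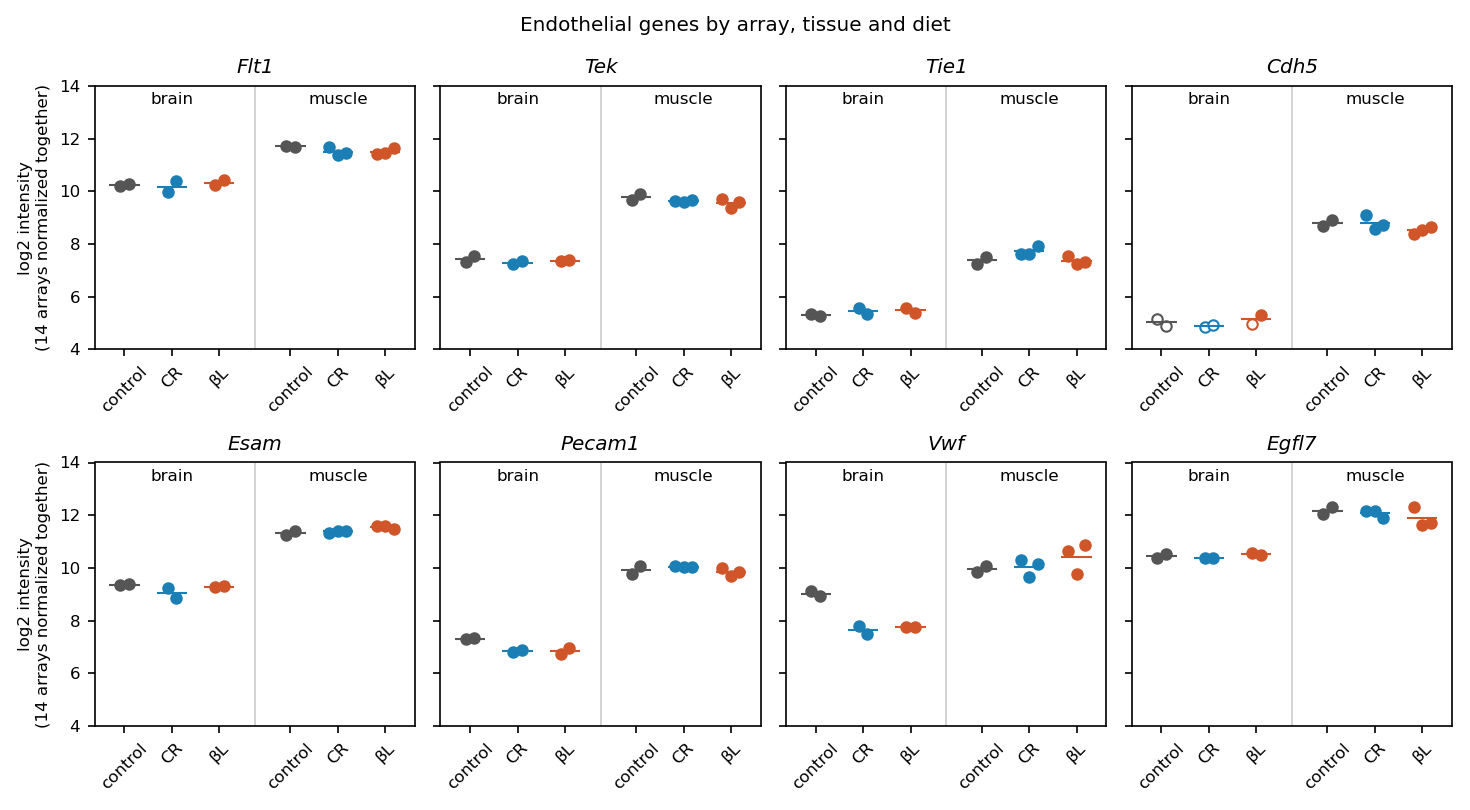
Log2 intensity of 8 endothelial genes on each of the 14 arrays, normalized together, by tissue and diet (dots are arrays, open where the probe was not above background, and lines are group means). Every muscle array lay above every brain array for each gene, Cdh5 was above background on 1 of 6 brain arrays, and the Vwf control arrays of brain (9.13 and 8.92) lay above the other 4.

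Of the VEGF receptors, Flt1, which binds VEGF tightly and limits its signal, had the smallest difference of the 8 genes averaged over diets, although the step from Egfl7 to Flt1 did not pass the test of neighbouring pairs and on the control diet that of Vwf was smaller (-0.93 against -1.45). Its brighter probe read 9.96 to 10.41 on the brain arrays and 11.37 to 11.74 on the muscle arrays, a difference of -1.32 (SE 0.09, adjusted p = 2.10e-08). Its other probe was above background on 1 of 14 arrays and gave no measure. Kdr, the main signalling receptor of VEGF, was above background on 1 of 14 arrays, replicate 1 of βL brain, and could not be compared in either tissue.

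The angiopoietin receptors Tek and Tie1 were both lower in brain. Tek read 7.23 to 7.54 in brain and 9.36 to 9.91 in muscle (-2.30, SE 0.08, adjusted p = 2.78e-11). Tie1 read 5.27 to 5.55 in brain, above background on all 6 arrays, and 7.23 to 7.93 in muscle (-2.08, SE 0.09, adjusted p = 1.84e-10). For Tie1 the brain values lay close to the lowest signals called above background (5.12 to 5.17), and its difference shrank to -1.06 under the alternative that moved it most.

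By the brightest probe of each gene, the junction genes held both of the widest differences. Cdh5, the cadherin of endothelial junctions, read 8.39 to 9.10 on the muscle arrays and 4.84 to 5.31 on the brain arrays, where it was above background only on βL replicate 2. In brain it therefore has only a bound: control muscle was at least 12.4-fold brighter than control brain and CR muscle at least 12.3-fold brighter than CR brain. With 1 of 2 βL brain arrays above background, the measured difference there was 10.5-fold. Over all diets muscle was at least 11.4-fold brighter. The adjusted p of 3.82e-12 by limma used the values as measured, in brain mostly background, and is not a test of that bound. Pecam1, an adhesion protein shared with platelets and leukocytes, read 6.74 to 7.33 in brain and 9.69 to 10.06 in muscle (-2.93, SE 0.08, adjusted p = 2.34e-12), and its dimmer probe differed less, by -1.90. Esam, an adhesion protein of endothelial tight junctions, read 8.87 to 9.38 in brain and 11.24 to 11.58 in muscle (-2.18, SE 0.07, adjusted p = 2.07e-11).

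The secreted proteins were also lower in brain. Vwf read 7.48 to 9.13 in brain and 9.64 to 10.86 in muscle (-1.99, SE 0.17, adjusted p = 1.76e-07). By diet the difference was -0.93 on the control diet (adjusted p = 0.0162), -2.39 on CR and -2.66 on βL. The control value lost its call without either of 2 arrays (adjusted p up to 0.0856). Without control replicate 1 of muscle all 8 genes were still called lower in control brain, Vwf at -1.04. Egfl7 read 10.37 to 10.57 in brain and 11.64 to 12.32 in muscle by its brightest probe (-1.60, SE 0.11, adjusted p = 3.08e-08). A second Egfl7 probe gave -2.13, and the third, near background in both tissues, -0.35 (adjusted p = 0.0591). Which Egfl7 transcripts the 3 probes reach was not examined.

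Between neighbours in the order of the differences, the log2 ratio of each pair of genes was compared between the 6 brain and 8 muscle arrays (7 pairs, two-sided exact permutation test over 3003 arrangements, p-values adjusted over the 7). The order came from these same arrays, so the pairs were not chosen independently of the values tested, and a pair that passed is no independent support for the order. By the brightest probe of each gene, Cdh5 differed from Pecam1, and Pecam1 from Tek (adjusted p = 0.00117 each). The step from Pecam1 to Tek depends on the probe. The dimmer Pecam1 probe, above background on all 6 brain and 8 muscle arrays, had -1.90, a smaller difference than that of Tek (-2.30). The gap between Cdh5 and Pecam1 rests on Cdh5 values that were above background on 1 of 6 brain arrays. It was -0.75 as measured and -0.57 with the others raised to the lowest detected signal of their array, which also passed (adjusted p = 0.00350). The other 5 pairs, from Tek to Flt1, did not pass (adjusted p from 0.151 to 0.822).

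Endothelial genes outside the 10 lay lower in brain as well, whereas most tested genes of the blood-brain barrier lay higher by their fitted values. Of 22 tested from a list of 30 other endothelial genes, 21 were lower, with a median of -2.06. Those with the smallest p were Robo4, a guidance receptor of vessels (-3.12, SE 0.07), Mmrn2, an extracellular matrix protein of endothelium (-3.90, SE 0.10), Sox7, a transcription factor of vessel identity (-3.69, SE 0.10), and Emcn, a surface sialomucin (-2.51, SE 0.08). Cd34, a sialomucin also made by other progenitor cells, was the exception (-0.12, adjusted p = 0.465) and turned to 0.24 and 0.41 with arrays scaled by medians. Acvrl1, counted among the 21 lower, was above background on 2 brain and 0 muscle arrays (means 5.04 and 5.34). Its bound, brain at least 0.63-fold of muscle, does not show which tissue was brighter. Aplnr, above background on 0 brain and 7 muscle arrays, entered the test through muscle and was at least 3.34-fold brighter there. Esm1, above background on 1 brain and 7 muscle arrays, also entered through muscle. Of 14 tested blood-brain barrier genes, 10 were higher in brain and 2 lower (median 1.05). The count and median rest on fitted values, also for genes above background on 0 muscle arrays, which entered the test through brain. Of these, Ocln, Slc22a8, Lsr and Cgnl1 had bounds of 0.73, 0.76, 0.62 and 0.67-fold, which do not show brain to be brighter. Slco1c1, a thyroid hormone transporter, was above background on all 6 brain and no muscle array and brighter in brain by at least 3.33 on the log2 scale. Mfsd2a, a lipid transporter of brain capillaries, was at least 8.07-fold brighter and Slco1a4, an organic anion transporter, at least 3.24-fold, also with 0 muscle arrays above background. Slc7a5, a transporter of large neutral amino acids, had a difference of 2.66 (SE 0.09), and Slc2a1, the glucose transporter of the barrier, 1.42 (SE 0.09). The 2 lower genes were Itm2a (-1.66) and Tfrc, the transferrin receptor (-1.02), which muscle fibres also make. Several of these transporters are also made by other cells of the brain, so the list describes whole tissue.

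Genes of capillaries that handle fatty acids, outside the brain, were mostly lower in brain. Of 9 tested, 8 were lower in brain and 1, Car4, higher (1.16, SE 0.07), with a median of -3.98. The count and median rest on fitted values. Gpihbp1, Meox2, Tcf15, Rbp7 and Aqp7 were above background on 0 brain arrays and entered the test through muscle, so they have only bounds. For Tcf15, Rbp7 and Aqp7 muscle was at least 11.6-fold, 9.95-fold and 6.19-fold brighter. Gpihbp1, which anchors lipoprotein lipase on the capillary wall, was above background on 0 brain arrays and at least 20.0-fold brighter in muscle, and Meox2, a transcription factor of muscle and heart capillaries, at least 18.1-fold. Lpl, the lipase itself, made by muscle fibres and fat cells, had a difference of -4.62 (SE 0.14), and the water channel Aqp1, above background on 4 of 6 brain arrays, -7.78 (SE 0.09). All 7 tested ligands and co-receptors of the VEGF and angiopoietin pathways were lower in brain (median -1.28), among them Angpt2 (-2.73), Nrp1 (-2.17), Vegfa (-1.28) and Vegfb (-1.12). All 10 mural cell genes, which mark pericytes and smooth muscle, were lower too (median -2.73), with Abcc9 at -4.82 and Notch3 at -2.96. This count and median also rest on fitted values. Tagln was above background on 0 brain and 8 muscle arrays and entered the test through muscle, where it was at least 4.23-fold brighter. Of 8 tested genes of endothelial activation and shear response, 6 were lower and 2 higher, the leukocyte adhesion gene Vcam1 (0.88) and the venular chemokine receptor Ackr1 (1.98).

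**Figure D2:**
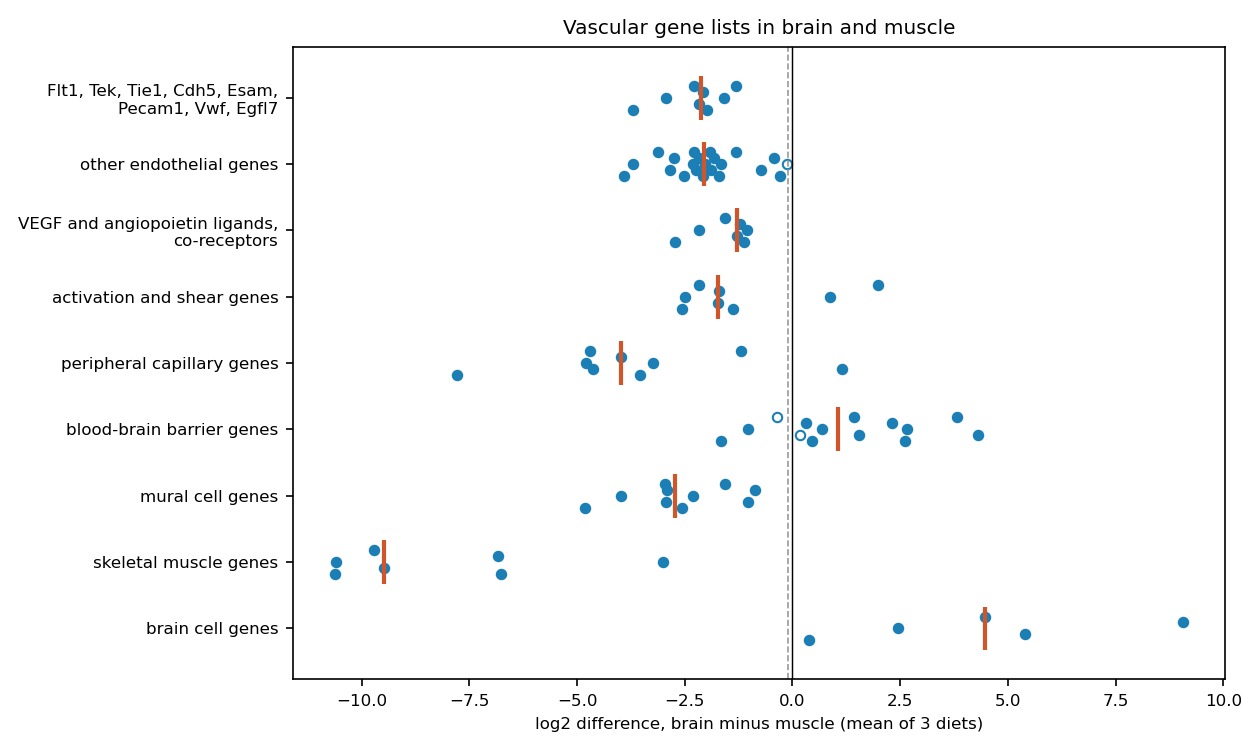
Log2 difference between brain and muscle (mean over the 3 diets) for each tested gene of 9 lists, with filled dots for an adjusted p under 0.05, bars at the list medians and a dashed line at the median of all genes (-0.10), where genes at background in a tissue, such as Cdh5, stand at their fitted value and not at a bound. The 8 endothelial genes (median -2.13) and the 22 other endothelial genes (-2.06) lay to the left and the 14 blood-brain barrier genes (1.05) mostly to the right.

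In brain, Vwf was lower on CR and on βL than on the control diet, and it was the only one of the 7 tested endothelial genes that passed in either comparison. Over all 9956 genes 0.231% were called on CR (0.221% lower) and 0.331% on βL (0.181% lower). On the log2 scale of the brain arrays Vwf read 9.25 and 9.07 on the control arrays, 8.06 and 7.79 on the CR arrays and 8.04 and 8.05 on the βL arrays. Both control arrays lay above all 4 others, by more than the distance between replicates of any diet. The share of all genes whose brain diets separated so was not counted, for Vwf or for Pecam1 and Slc38a5 below. As deposited, before any normalization, the control arrays had intensities of 733 and 572, those of CR 323 and 272 and those of βL 298 and 278. The difference from control was -1.24 on CR (95% interval -1.53 to -0.95, adjusted p = 0.0224), 2.36-fold lower, and -1.12 on βL (-1.40 to -0.83, adjusted p = 0.0208), 2.17-fold lower. By p-value Vwf ranked 11 of 9956 on CR and 24 on βL. Both comparisons share the 2 control arrays, so they are not independent of each other. CR and βL differed by 0.12 (-0.17 to 0.41, adjusted p = 0.776). The size held without any 1 of the 6 arrays (-1.37 to -1.10 on CR and -1.21 to -1.03 on βL). The calls did not, since that on CR was lost without any 1 of the 6 (adjusted p from 0.0561 to 0.275) and that on βL without either control or either βL array (adjusted p up to 0.294).

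**Figure D3:**
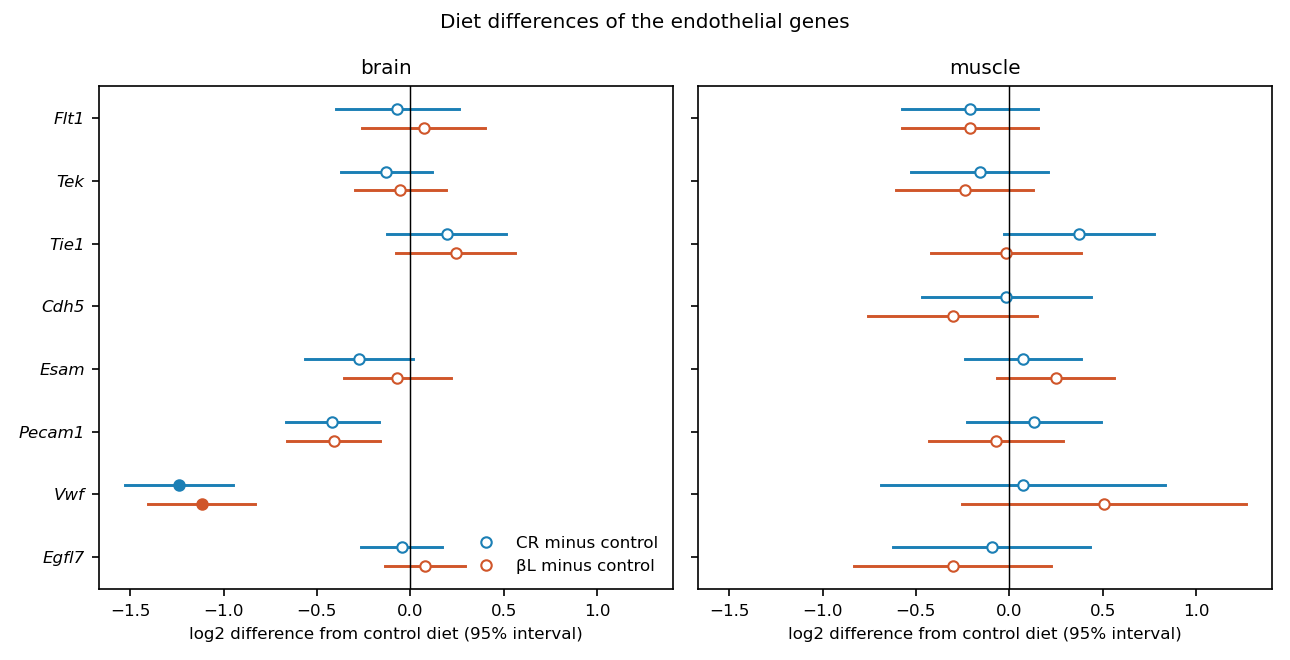
Log2 difference from the control diet (dot) with its 95% interval (line) for each endothelial gene tested in brain (7) and in muscle (8), for CR and βL, with filled dots for an adjusted p under 0.05. Vwf in brain, at -1.24 and -1.12, was the only gene with filled dots, and Cdh5 could not be tested in brain.

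After Vwf, Pecam1 had the smallest p in brain, and it did not pass. Its brighter probe read 7.61 and 7.66 on the control arrays, 7.17 and 7.26 on CR and 7.11 and 7.34 on βL, so both controls lay above the other 4. The differences were -0.42 on CR (-0.67 to -0.17, adjusted p = 0.354) and -0.41 on βL (-0.66 to -0.16, adjusted p = 0.339). Its other probe gave -0.44 and -0.15. The remaining members differed less. Esam had -0.27 on CR and -0.069 on βL, Tek -0.13 and -0.053, Flt1 -0.069 and 0.071, Egfl7 -0.047 and 0.077, and Tie1 0.20 and 0.24 (adjusted p of 0.641 or higher). Their 95% intervals reached no further from 0 than -0.56 (Esam on CR) and 0.56 (Tie1 on βL). Over the 7 members the median was -0.13 on CR and -0.053 on βL, against 0.0018 and -0.0016 over all genes. Between βL and CR all 7 lay above 0 (median 0.12) and 0 passed, where 0.281% of all genes did. Over all genes 51.8% lay below 0 in that comparison.

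In the other vascular lists of brain 1 or 0 genes passed in each comparison with control. Of 20 other endothelial genes tested, 0 passed on either diet and the medians were -0.053 on CR and 0.056 on βL. Nor did any of 9 mural cell genes (medians -0.098 and 0.15), and of the 7 ligands and co-receptors (0.026 and 0.15) Angpt1, the ligand of Tek, read 0.36 and 0.37 without passing (adjusted p = 0.393 and 0.351). Of 14 blood-brain barrier genes 1 passed on each diet. It was Slc38a5, a glutamine transporter of brain endothelium, which read 8.06 and 8.04 on the control arrays, 6.77 and 6.99 on the CR arrays and 7.20 and 7.24 on the βL arrays, with no overlap between diets. The differences were -1.17 on CR (adjusted p = 0.0120) and -0.83 on βL (adjusted p = 0.0365). The first call was lost without 5 of the 6 arrays in turn and the second without 4 (adjusted p up to 0.275 and 0.387). Of 4 genes of fatty acid capillaries 1 passed on βL, where it was higher, and 0 on CR. Aqp1, a water channel that the choroid plexus also makes, read 5.58 and 5.28 on the control arrays and 7.02 and 7.02 on the βL arrays, a difference of 1.59 (adjusted p = 0.00458), and was not above background on CR. It was also higher on βL than on CR (adjusted p = 9.60e-04). Without one or the other βL array another of its probes was the brighter, and the value against control was 1.01 or 0.70 with no call (adjusted p up to 0.318). Fcgr2b, an Fc receptor of liver sinusoid endothelium and of immune cells, was 1 of 2 tested sinusoid genes and was lower on βL (-1.08, adjusted p = 0.0114) with -0.61 on CR (adjusted p = 0.190). Its call was lost without 4 of the 6 arrays in turn.

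Genes of endothelial activation and of the response to flow mostly lay below control in brain, and none passed. All 8 tested lay below 0 on CR (median -0.40) and 7 of 8 on βL (median -0.21), where 49.5% and 50.5% of all genes did. Klf2, a transcription factor induced by flow, read 8.19 and 7.93 on control, 7.18 and 6.90 on CR and 7.80 and 7.78 on βL (-1.02, adjusted p = 0.0585 on CR, and -0.27 on βL). It passed on CR with no background correction (adjusted p = 0.00464) and with the authors' normalized values (adjusted p = 0.00423). Selp, the adhesion protein stored in the same granules as von Willebrand factor, was above background only on the 2 control arrays (5.83 and 5.57) and entered the test through them. Control was at least 1.36-fold brighter than CR and at least 1.39-fold brighter than βL, and neither passed (adjusted p = 0.305 and 0.220). Icam1, a leukocyte adhesion gene, read -0.47 and -0.28.

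Markers of other cells moved with Vwf in brain, and their part in its difference was not tested. All 6 tested macrophage genes lay below 0 on both diets (medians -0.45 and -0.55), where 49.5% of all genes did on CR and 50.5% on βL. The summed intensity of the macrophage genes was 3636 to 4352 on control, 2858 to 3047 on CR and 2360 to 2411 on βL. Lyz2, the lysozyme of myeloid cells, passed on both (-0.93, adjusted p = 0.0316, and -1.24, adjusted p = 0.00886), and Cd14 on βL (-1.16, adjusted p = 0.0127, with 1 of 2 βL arrays above background). The neutrophil and acute phase genes Lcn2, S100a8 and S100a9, chosen after their values were seen, were called lower on each diet against the same 2 control arrays. S100a8 had -3.39 on CR and -2.81 on βL. The others were above background only on the control arrays and entered the test through them, so their calls are no separate support. On control Lcn2 was at least 10.5-fold and 10.8-fold brighter and S100a9 at least 5.52-fold and 5.67-fold. Platelets also carry von Willebrand factor. Of their 5 genes with a probe, Gp1bb, Gp9 and Itga2b were above background on 6 of 6 brain arrays, Pf4 on 1 and Ppbp on 0. None of the 3 tested passed (medians -0.056 and -0.034). The calls of Lyz2 and Cd14 were each lost without 4 or more of the 6 brain arrays in turn. Choroid plexus genes went in opposite directions, with 2 lower on CR and 3 higher on βL of 5 (Kl -1.01 and 1.26), as did the red cell gene Hba-a1 (-0.39 and 0.94).

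**Figure D4:**
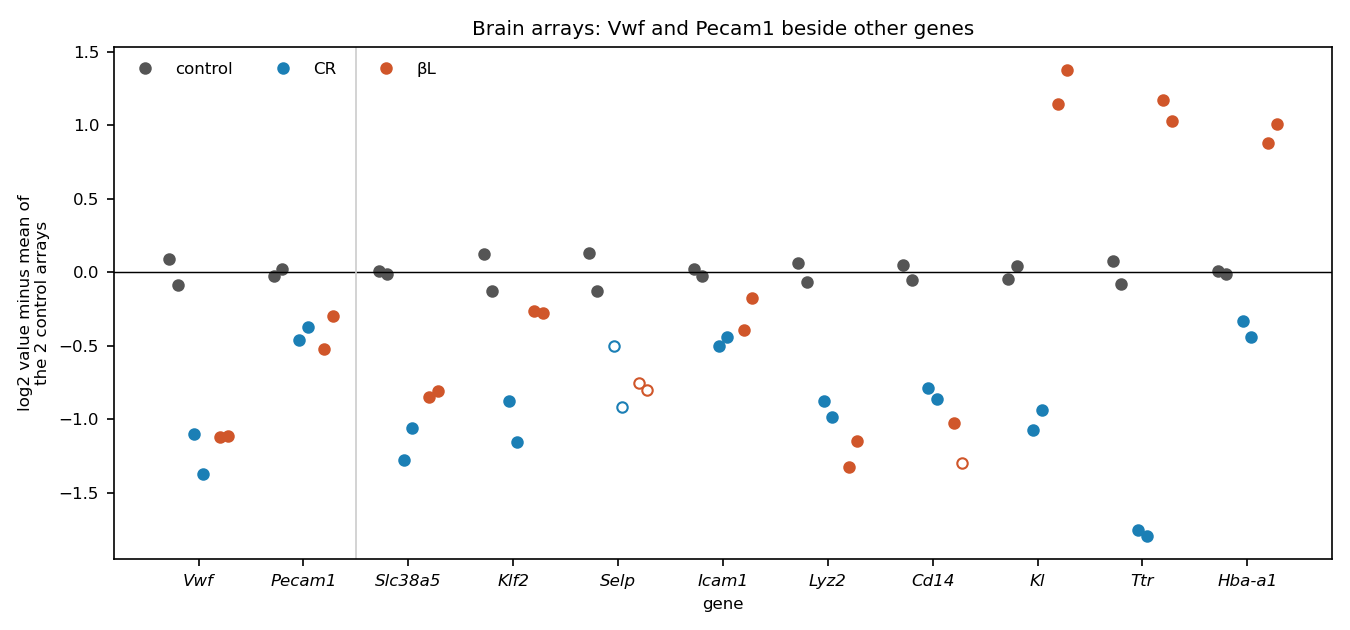
Log2 value of each brain array minus the mean of the 2 control arrays, by diet (dots, open where not above background), for Vwf and Pecam1 and for 9 genes described beside them. Vwf, Slc38a5, Lyz2 and Cd14 lay below control on both diets, whereas Kl, Ttr and Hba-a1 lay below it on CR and above it on βL.

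In muscle none of the 8 endothelial genes differed between diets by the test. The adjusted p-values ran from 0.491 upwards in all 3 comparisons, where 0% of all genes were called between CR and control and 0.0225% in each of the other 2. Unadjusted, 1 p over the 3 comparisons was under 0.05. It was that of Tie1, which read 7.39, 7.40 and 7.74 on CR and 7.30, 6.98 and 7.08 on βL (βL minus CR -0.39, -0.75 to -0.03, adjusted p = 0.491) and 7.01 and 7.27 on control. All 3 CR arrays lay above all 5 others, but the share of all genes that separated so was not counted, and the difference did not pass. Vwf was the most variable member, at 9.79 and 10.02 on control, 10.28, 9.57 and 10.09 on CR and 10.63, 9.73 and 10.90 on βL, and the diets overlapped. Its difference was 0.073 on CR (-0.69 to 0.83) and 0.51 on βL (-0.25 to 1.27), intervals that take in changes of either sign. By their brightest probes the other members lay within 0.37 of control, from Tie1 on CR (0.37) to Cdh5 and Egfl7 on βL (-0.30 each). Other probes lay further away on βL and disagreed in sign, with -0.52 and 0.44 for those of Egfl7 and -0.47 for that of Pecam1 (adjusted p of 0.469 or higher over 11883 probes). The median difference from control was 0.028 on CR and -0.14 on βL, against -0.0031 and -0.023 over all genes, and leaving out control replicate 1 or any other single array left 0 members called. Without control replicate 1 the members' median was -0.090 on CR and -0.20 on βL, and the difference of Vwf was -0.041 on CR and 0.39 on βL. The others then ran from -0.29 (Tek) to 0.24 (Tie1) on CR and from -0.45 (Egfl7) to 0.16 (Esam) on βL.

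The other vascular genes of muscle did not pass either. All 10 mural cell genes lay below 0 on βL (median -0.29), with Pdgfrb, the receptor that recruits pericytes, at -0.77 and Rgs5, a pericyte regulator, at -0.80 (adjusted p = 0.346 each). Over all genes 53.9% lay below 0 on βL. Over 21 other endothelial genes the median was -0.12 for CR and -0.058 for βL, with Aplnr, the apelin receptor, at -1.30 on βL (adjusted p = 0.357). RNA of genes that mark other cells varied on these arrays, although 0 of the tested red cell, white adipocyte and macrophage genes were called. The summed intensity of 4 red cell genes was 17754 to 24908 on control, 17598 to 25996 on CR and 45541 to 62137 on βL, and that of 6 white adipocyte genes 2335 to 6811, 4244 to 7735 and 6503 to 13563. Macrophage genes lay above 0 on βL in 6 of 6 (median 0.82). Without control replicate 1, 9 of 10 mural cell genes lay below 0 on βL (median -0.22, Pdgfrb -0.64 and Rgs5 -1.01), the other endothelial genes had medians of -0.17 for CR and -0.16 for βL (Aplnr -1.20), and the macrophage genes 0.40 on βL, with 0 of these called. The part of these cells in the endothelial values was not tested.

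Whether a diet acted differently on the 2 tissues was tested as an interaction, brain minus muscle. None of the 8 members passed, where 0.0185% of all genes did for CR and 0.0554% for βL. Vwf was nearest, with -1.46 for CR (SE 0.41, adjusted p = 0.990) and -1.72 for βL (SE 0.41, adjusted p = 0.282). For βL it passed without replicate 2 of βL muscle (adjusted p = 0.0246).

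The members did not vary together closely across arrays. The correlation of each with the mean of the others ran from -0.284 (Esam) to 0.740 (Pecam1) over the 8 muscle arrays and from -0.652 (Tie1) to 0.796 (Pecam1) over the 6 brain arrays. These values describe few arrays that share diets and controls. The genes most like the members' mean were B9d1 (r = 0.953), Mmrn2 (0.941), Vps39 (0.938), St8sia4 (0.934) and Dppa5a (0.933) in muscle, and Atp6v1f (0.988), Cdca4 (0.980), Ddit4 (0.980), Fancg (0.979) and Sri (0.976) in brain. Of these 10, Mmrn2 is the one on the list of other endothelial genes.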

How the data were processed

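Illumina Sentrix Mouse-8 v2 BeadChips were used for the RNA of muscle (8 arrays) and brain (6 arrays), and the labels gave each array its tissue and diet. The authors deposited unnormalized intensities, read out with BeadStudio, and next to each of these intensities a detection p-value that the authors obtained against negative control beads. A second table deposited by the authors holds their normalized intensities and served as an alternative. The genome build and the chip of each array are not given in the sources used here. The annotation of the 25697 probes gave 1 symbol to 23978 of them, more than 1 symbol to 0 and none to 1719. A match by gene identifier to RefSeq's table was found for 23962 and altered 0 symbols.

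The background was modelled by normexp from the detection p-values (offset 16), followed by quantile normalization and log2, within each tissue for the diets and over the 14 arrays for the tissues. A probe was kept if 2 or more arrays of the fit gave it a detection p under 0.05, and the brightest probe stood for a gene. All groups of a fit were tested together with limma 3.58.1 (lmFit and eBayes, R 4.3.3), and a gene was called where the Benjamini-Hochberg adjusted p over all genes was under 0.05. The steps were tested on simulated data. Where no array of a group had a probe above background, the fold is a bound. It sets the brighter group's mean against the dim group's mean, after dim values had been raised on each array to its lowest detected signal. The number of arrays limits the precision.

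All 10 endothelial genes and their probes are named. From each other list the rule took up to 4 genes that passed, or 2 where none did, by the smallest p, and the 5 genes per tissue most correlated with the members' mean. Other genes named, such as Selp, Angpt2, Nrp1, Vegfb, Slc2a1 and Slc7a5, were picked with their values already seen. The members and all lists were chosen with earlier results of these data known. The samples were not treated as paired by replicate number. Correlations of same-numbered deviations ran from -0.215 to 0.192. Between groups of 2 arrays both numbers give the same value, so these correlations cannot show whether samples were paired. The alternatives were no background correction, an offset of 50, no filter on dim probes, the mean of a gene's probes, array weights, other scalings, the authors' normalized values (floor 16), fits of the compared groups alone, the replicate number as a block, the methods' t-test and each array left out.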

Additional observations from a re-analysis of the deposited data

How the results depend on the processing

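Of the counts of endothelial genes called, 238 of 252 values under the alternatives stayed at or within 1.5 times the main count. In brain the 1 call on CR fell to 0 with only the groups compared and with the methods' t-test, which also gave 0 on βL. Leaving out each array gave 0 on CR, 0 to 1 on βL and 0 to 1 for the βL interaction. The log2 difference of Vwf in brain ran from -1.39 to -1.07 on CR and from -1.26 to -0.98 on βL over the other alternatives. Of 8 genes, 8 stayed lower in brain than in muscle under every alternative run. Over all genes the brain calls ran from 0 to 36 on CR (main 23) and from 0 to 69 on βL (main 33) with all arrays in. The median over all genes, brain minus muscle, was -0.10 and became 0.050 when arrays were scaled by the probes detected on all of them, an alternative chosen after seeing the data, and in muscle on CR it went from -0.0031 to -0.12 under median scaling.

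Small differences changed sign, none of them called on either side except that of Cd34 between tissues, which went from -0.12 to 0.24 under median scaling and to 0.41 under scaling by detected probes (adjusted p = 0.0240). The cause was not tested. Under median scaling the muscle differences on CR became -0.081 for Vwf, -0.027 for Pecam1 and -0.081 for Esam, Tie1 on βL became 0.031 and Tek between βL and CR 0.068. In brain it gave -0.015 for Egfl7 and -0.025 for Flt1 on βL, and -0.048 for Pecam1 and -0.0072 for Egfl7 between βL and CR. Scaling by detected probes gave 0.0097 for Tie1 on βL and -0.023 for Flt1 between βL and CR in muscle. The mean of a gene's probes gave -0.079 for Pecam1 on CR in muscle and -0.0072 for Egfl7 on βL in brain. What arrays with the same replicate number share is not stated. With the replicate block the counts of endothelial genes called stayed the same (1 in brain on CR, 1 on βL, 8 between tissues), and the differences became -0.074 for Vwf and 8.8e-05 for Egfl7 on CR in muscle and -0.045 for Egfl7 in the CR interaction.

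Leaving out each array in turn also crossed 0 for differences near it. In muscle on CR the ranges were -0.077 to 0.28 for Vwf, -0.027 to 0.29 for Pecam1, -0.014 to 0.16 for Esam, -0.19 to 0.11 for Cdh5 and -0.24 to 0.046 for Egfl7. On βL in muscle they were -0.23 to 0.087 for Pecam1 and -0.15 to 0.11 for Tie1, and between βL and CR -0.077 to 0.096 for Flt1 and -0.16 to 0.020 for Tek. In brain on CR they were -0.11 to 0.017 for Egfl7 and -0.26 to 0.12 for Flt1, and on βL -0.16 to 0.049 for Tek and -0.00041 to 0.14 for Flt1. Between βL and CR in brain they were -0.11 to 0.12 for Pecam1, -0.050 to 0.33 for Flt1, -0.017 to 0.25 for Vwf and -0.11 to 0.20 for Tie1. In the CR interaction they were -0.26 to 0.012 for Cdh5, -0.12 to 0.13 for Tek, -0.098 to 0.18 for Egfl7 and -0.098 to 0.34 for Flt1. Where 1 array of a group remained, its spread was taken from the other groups. The chip as a block was not run because no source used here gives the chip of an array. Cdh5 in brain and Kdr in both tissues lay at or near background, where their levels are limits.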
